A study of Mus musculus with 17 samples.

Results

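The Schlafen family was followed through 8 probe sets of an Affymetrix mouse gene array, 1 for each of Slfn1, Slfn2, Slfn3, Slfn4, Slfn5, Slfn8, Slfn9 and the pseudogene Slfn10-ps, out of 24680 probe sets in the table, which stand for 19751 genes where only 1 symbol is listed. A probe set belonged to the family when it was annotated to exactly 1 of these symbols, and no probe set with several symbols named a Schlafen gene. The genes were chosen by name, after nearest readings of these same arrays had been seen, so the readings and calls below describe them and are no independent evidence about the family. The other Schlafen gene of the cluster, Slfn14, had no probe set of its own here.

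RNA came from plasmacytoid dendritic cells (pDCs) of C57BL/6 mouse bone marrow, enriched with magnetic beads and sorted as CD11c-intermediate, B220+ and SiglecH+. The 17 arrays fell into 6 groups. Medium alone had 2 arrays, numbered 1 and 3, and there were 3 arrays each for LIF, for either CpG alone (CpG-A, CpG-B) and for either CpG given after LIF (CpG-A + LIF, CpG-B + LIF). LIF, leukaemia inhibitory factor, was used at 10 ng/ml for 20 to 24 h in all, starting 1 h before any CpG, and the TLR9-stimulating oligonucleotides CpG-A (2216) and CpG-B (1826) were used at 6 µg/ml for 19 to 23 h by the sample labels and 18 to 24 h by the series text. All groups share the strain, the tissue and the sorting gate, and nothing in the labels ties a replicate to a mouse, a culture or a pool, so p-values measure only the spread between these arrays. The sources used here do not give the age or sex of the mice.

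Schlafen genes are known as interferon-inducible genes of immune cells, and the family's name, from the German for sleeping, refers to the growth arrest caused by the founding member in thymocytes. The proteins share an N-terminal core that in several members binds or cuts RNA, including transfer RNA. Mouse members are grouped by size into short proteins (Slfn1 and Slfn2), intermediate proteins (Slfn3 and Slfn4) and long proteins with a helicase-like C-terminal part (Slfn5, Slfn8 and Slfn9). Plasmacytoid dendritic cells are the cell type best known for making type I interferon after TLR9 is triggered, and CpG-A is the class of oligonucleotide known for that output.

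In the RefSeq annotation of GRCm38.p6, all 8 genes lie on chromosome 11 between 82951349 and 83215154, a stretch of 264 kb that holds 14 genes in all. Slfn5 opens the cluster on the plus strand at 82951349 to 82964850. Slfn9 (82974316 to 82991830) and Slfn8 (83002125 to 83020810) follow on the minus strand, and then Slfn10-ps (83028123 to 83040533), listed as miscellaneous RNA. Slfn2 (83065112 to 83070678), Slfn1 (83116820 to 83122670), Slfn4 (83175172 to 83190216) and Slfn3 (83191330 to 83215154) close it on the plus strand. Slfn8, Slfn9 and Slfn10-ps are close relatives, and how far their probe sets pick up each other's transcripts was not tested.

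The stretches before the start sites are shown for the 7 members with a promoter entry. They split these 7 the same way as position and protein size do, with 2 different short words. Slfn10-ps had no promoter entry and was not searched. The 250 bases before each RefSeq start were searched on both strands for GAAA, any 2 bases and GAAA again, the core of the interferon-stimulated response element, for TTCNNNGAA, the core of the gamma-activated site bound by STAT proteins, and for ACTTCCTGG, a word chosen after it was seen in these promoters. The 4 plus-strand genes of the short and intermediate classes each hold ACTTCCTGG, in capitals in the first 4 sequences, beginning 74 bases before the start in Slfn1, 55 in Slfn2, 42 in Slfn3 and 73 in Slfn4. The 3 long members hold the interferon element, in capitals in the other 3 sequences, beginning 155 bases before the start in Slfn5, 48 in Slfn8 and 45 in Slfn9, and written in Slfn8 and Slfn9 on the opposite strand as TTTCGTTTTC. All 7 are 60-base stretches in the 5′ to 3′ direction of the gene, from RefSeq on GRCm38.p6.
Slfn1, chr11:83116721-83116780, plus strand: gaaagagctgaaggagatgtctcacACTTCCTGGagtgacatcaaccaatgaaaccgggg
Slfn2, chr11:83065032-83065091, plus strand: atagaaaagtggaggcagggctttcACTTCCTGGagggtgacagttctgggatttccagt
Slfn3, chr11:83191263-83191322, plus strand: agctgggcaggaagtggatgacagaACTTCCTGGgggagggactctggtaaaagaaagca
Slfn4, chr11:83175088-83175147, plus strand: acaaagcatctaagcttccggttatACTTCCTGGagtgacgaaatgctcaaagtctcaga
Slfn5, chr11:82951922-82951981, plus strand: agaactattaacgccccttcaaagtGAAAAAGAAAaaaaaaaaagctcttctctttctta
Slfn8, chr11:83020824-83020883, minus strand: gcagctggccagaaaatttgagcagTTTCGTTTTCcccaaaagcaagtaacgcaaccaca
Slfn9, chr11:82991841-82991900, minus strand: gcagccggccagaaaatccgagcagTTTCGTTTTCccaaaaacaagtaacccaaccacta

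Over all 32851 promoter entries, ACTTCCTGG occurred in 0.7%, the interferon element in 2.98% and TTCNNNGAA in 7.02%, the last in none of the 8 Schlafen entries. Slfn8 has 2 entries that overlap and share their match, so that element stood in 4 entries from 3 genes. The match in Slfn5 runs into a stretch of A, and the start listed for it lies inside the gene's own span. The upstream stretches of Slfn8 and Slfn9 were 79.8% identical, while the other 20 pairs of members were 40.7 to 49.1% identical. These matches describe letters in a window, and the arrays hold no measurement of binding.

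The deposited intensities have lost their decimal mark, so each value is known only as its digits, here written as a significand between 1 and 10, and its power of 10 is unknown. A significand of 1.03 can therefore lie just above one of 9.97. On the log2 scale a difference between groups is known up to multiples of 3.32, and the nearest reading, between -1.66 and 1.66, is given with its standard error. Where a called reading is at most 1.11 in size (2.15-fold) its direction is read, on the assumption that the nearest reading holds. The other reading is then at least 4.64-fold the other way, and the assumption was not tested. Readings a further multiple of 3.32 away are also possible. A reading that was not called has such other readings too, so a missing call does not exclude a change near 10-fold either way. For larger called readings the direction is not readable and the other reading stands in brackets. No level, and so no ranking of the genes by abundance, can be recovered, and the sorted cell type could not be checked against the level of its markers. Bulk RNA also cannot tell fewer expressing cells from less RNA per cell.

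**Figure D1:**
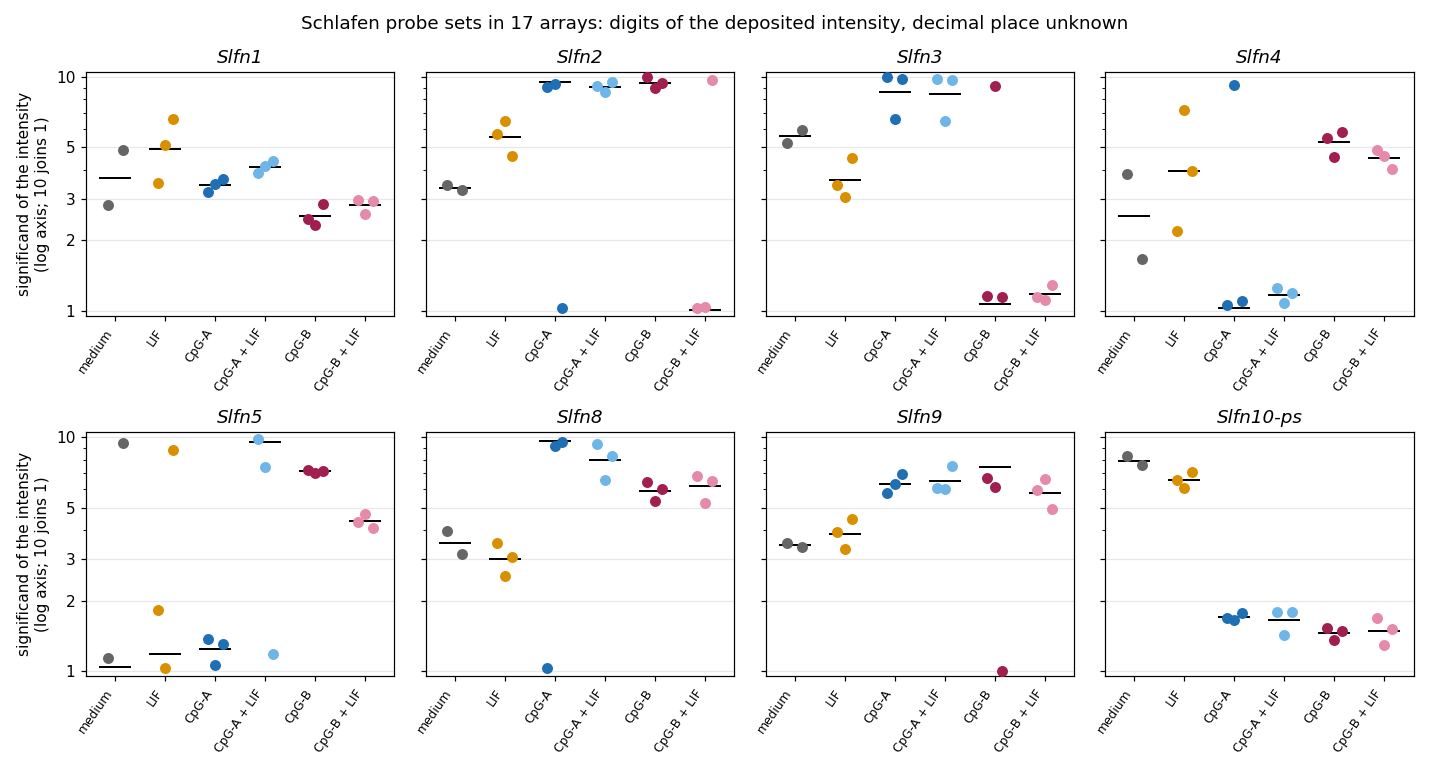
Significand of the deposited intensity (log axis, where 10 joins 1) for each of the 8 Schlafen probe sets in the 17 arrays, with 1 point per array, groups on the horizontal axis and a bar at each group's geometric mean. Slfn2 sits between 3.27 and 3.46 in medium and between 8.98 and 9.97 in CpG-B, and Slfn10-ps moves from 7.61 and 8.28 in medium to 1.66 to 1.77 in CpG-A across the join of the axis.

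Both CpGs called 5 of the 8 members, and every called member whose direction could be read was higher. Set against medium, which shows the response of resting cells, CpG-A called 5 of the 8 members, against 16.1% of all probe sets. Of these, Slfn9 and Slfn10-ps read higher (4.62% of all probe sets did), 3 had no readable direction (4.58%), and none read lower. CpG-B vs medium called 5 as well, against 17.8% of all probe sets, with Slfn3, Slfn8, Slfn9 and Slfn10-ps higher (6.37%) and Slfn2 without a readable direction (5.1%). The median nearest reading of the 8 was 0.75 with CpG-A (0.98 with Slfn4 at its other reading of 2.03) and 0.91 with CpG-B, beside -0.02 and -0.05 over all probe sets. These medians hold Slfn2, and with CpG-A also Slfn8, at nearest readings whose direction is not readable. The CpG-A median would be lower with these 2 at their other readings, -1.82 and -1.88. Arrays of the 2 groups did not overlap for 6 members with CpG-A (41.1% of all probe sets) and for 7 with CpG-B (44.7%). These comparisons share the 2 medium arrays, so their members' readings are not independent of each other. Without medium replicate 1, CpG-A called 4 members and 10.1% of all probe sets and CpG-B 6 members and 11.9%. Without medium replicate 3, CpG-A called 5 members and 10.1% and CpG-B 4 members and 11.3%.

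Among the short members, Slfn2, the gene whose loss breaks the quiescence of T cells in mice, had the steadiest values of the family, with a within-group SD of 0.128. Its significands were 3.46 and 3.27 in medium, 9.08, 9.33 and 1.03 in CpG-A, and 9.97, 8.98 and 9.44 in CpG-B. Both CpG groups lie together and far from medium, just short of the widest distance that can be read. The nearest reading was 1.51 ± 0.14 (or -1.82) for CpG-A, with limma adjusted p = 4.38e-06, and 1.49 ± 0.14 (or -1.83) for CpG-B, with limma adjusted p = 3.45e-06. CpG-A and CpG-B themselves differed by 0.01 ± 0.12 for Slfn2 (limma adjusted p = 0.964).

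Slfn1, the founding member, whose forced expression halts thymocyte growth, was not called against medium by either CpG. Its significands were 2.82 and 4.88 in medium, 3.23, 3.47 and 3.67 in CpG-A, and 2.46, 2.33 and 2.87 in CpG-B. The 2 medium arrays span all of the CpG-A arrays and overlap those of CpG-B. The reading was -0.10 ± 0.23 for CpG-A and -0.54 ± 0.23 for CpG-B, the latter with limma adjusted p = 0.118. Their other readings, 3.22 for CpG-A and 2.78 for CpG-B, are not excluded by the missing calls. Without medium replicate 1, the Slfn1 reading for CpG-B was -0.94 with limma adjusted p = 0.0202.

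Of the intermediate members, Slfn3 had significands of 5.20 and 5.93 in medium, 9.98, 6.63 and 9.75 in CpG-A, and 1.16, 9.11 and 1.15 in CpG-B. CpG-B replicates 1 and 3 lie beyond 10 on the joined axis, and replicate 2 was the lowest array of both CpG groups. Slfn3 read 0.94 ± 0.22 higher with CpG-B (limma adjusted p = 0.00491), and 0.64 ± 0.22 with CpG-A missed the threshold (limma adjusted p = 0.0546). Of the 24 other settings run, 8 called the CpG-A reading of Slfn3, with values from 0.53 to 0.83 and adjusted p from 0.00166 to 0.288 over all 24. Replicate 2 was the lowest Slfn3 array in all 5 groups that have one, and medium has none. The CpG-B call was lost without medium replicate 1, at adjusted p = 0.0632.

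Slfn4, a myeloid member induced by interferon in macrophages, had the least settled values, with a within-group SD of 0.463, above 97.3% of all probe sets. Its significands were 3.83 and 1.67 in medium, 1.06, 9.27 and 1.10 in CpG-A, and 5.50, 4.53 and 5.82 in CpG-B. The CpG-A arrays lie close together across the join, while the 2 medium arrays differ 2.3-fold. The nearest reading for CpG-A was -1.30 ± 0.36 (or 2.03), with limma adjusted p = 0.0182. The step from medium to CpG-B was 1.05 ± 0.36 (adjusted p = 0.0511) and the step from CpG-B to CpG-A was 0.97 ± 0.32 (adjusted p = 0.0584), which add up to 2.03, the other reading. Neither step was called. The first was called in 5 of 23 other settings and ran from 0.46 (adjusted p = 0.574) without medium replicate 3 to 1.65 (adjusted p = 0.0114) without medium replicate 1, and was -0.61 with the circle opened at its widest gap. The second was called in 6 of 23. Slfn4 was the one member whose 3 readings among medium, CpG-A and CpG-B did not add up, which happened in 1.88% of all probe sets. Without medium replicate 3 the nearest Slfn4 reading for CpG-A turned to 1.43 (adjusted p = 0.0308). Without medium replicate 1 it was -0.70 (adjusted p = 0.353), without CpG-A replicate 2 it was -1.22 (adjusted p = 0.0555), and with the circle opened at its widest gap it was 0.36 (adjusted p = 0.758).

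Of the long members, both CpGs called Slfn8 and Slfn9 and neither called Slfn5, and a difference between these genes was not tested. Slfn8 had significands of 3.96 and 3.17 in medium, 1.03, 9.13 and 9.54 in CpG-A, and 6.42, 5.32 and 6.00 in CpG-B. The 3 groups do not overlap, and at the nearest readings CpG-B lies between medium and CpG-A. Slfn8 read 0.74 ± 0.18 higher with CpG-B (limma adjusted p = 0.00704) and 1.44 ± 0.18 (or -1.88) with CpG-A (limma adjusted p = 3.13e-05). The CpG-B call was lost without medium replicate 3, at adjusted p = 0.119.

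Slfn9, the close neighbour and relative of Slfn8, had significands of 3.52 and 3.39 in medium, 5.74, 6.29 and 6.96 in CpG-A, and 6.71, 6.11 and 1.00 in CpG-B. All 6 CpG arrays lie above medium on the joined axis, and CpG-B replicate 3 stands highest. The reading was 0.87 ± 0.20 for CpG-A (limma adjusted p = 0.00505) and 1.11 ± 0.20 for CpG-B (limma adjusted p = 6.44e-04), the latter just inside the limit for a readable direction. Over the settings run this CpG-B reading ran from 0.89 to 1.25, so in some its direction was not readable.

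Slfn5, the long member at the other end of the cluster, which is known as an interferon-induced nuclear protein, was not called by either CpG. Its significands were 1.14 and 9.44 in medium, 1.37, 1.06 and 1.31 in CpG-A, and 7.21, 7.03 and 7.16 in CpG-B. The CpG-A arrays overlap medium, and the CpG-B arrays, within 1.03-fold of each other, lie below it. The readings were 0.26 ± 0.24 for CpG-A (limma adjusted p = 0.587) and -0.54 ± 0.24 for CpG-B (limma adjusted p = 0.152). Their other readings, -3.07 for CpG-A and 2.78 for CpG-B, are not excluded by the missing calls.

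Slfn10-ps, the pseudogene next to Slfn8, had significands of 8.28 and 7.61 in medium, 1.68, 1.66 and 1.77 in CpG-A, and 1.52, 1.36 and 1.49 in CpG-B. Arrays within a group agree closely, at an SD of 0.134, and both CpG groups lie across the join from medium. Slfn10-ps read 1.10 ± 0.14 higher with CpG-A (limma adjusted p = 4.47e-05) and 0.88 ± 0.14 higher with CpG-B (limma adjusted p = 2.58e-04). The CpG-A reading ran from 1.04 to 1.17 over the settings run, so in some its direction was not readable.

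**Figure D2:**
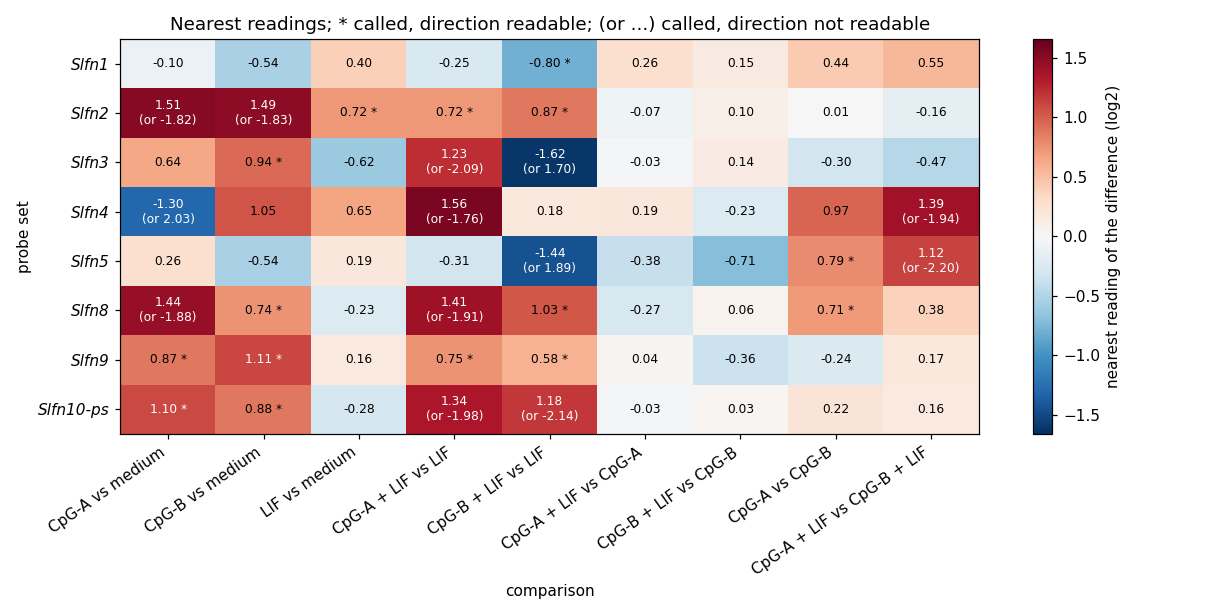
Nearest log2 readings of the 8 Schlafen probe sets (rows) in the 9 comparisons of 2 groups (columns), coloured from -1.66 to 1.66, with a star on called readings of readable direction and the other reading in brackets where the direction is not readable. The columns for CpG-A and CpG-B against medium hold 5 calls each, and the 2 columns for LIF added to a CpG hold none.

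CpG-A vs CpG-B compared the oligonucleotide classes directly. It called 2 of the 8 members, Slfn5 and Slfn8, both higher with CpG-A, against 12.3% of all probe sets called and 4.02% called higher. Slfn8 read 0.71 ± 0.16 higher with CpG-A (limma adjusted p = 0.0061), a call kept in every setting run. Slfn5 read 0.79 ± 0.22 higher (limma adjusted p = 0.0217), a call lost at adjusted p values up to 0.0868 when any of CpG-B replicates 1, 2 and 3 or CpG-A replicates 1 and 3 was left out. The groups did not overlap for 5 members (27.9% of all probe sets), Slfn1, Slfn4, Slfn5, Slfn8 and Slfn10-ps, and the median reading was 0.33 beside 0.04 over all probe sets. The largest reading, 0.97 ± 0.32 for Slfn4, was not called (limma adjusted p = 0.0584). Slfn9 (-0.24 ± 0.18) and Slfn3 (-0.30 ± 0.19) had readings below 0 that were not called.

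With LIF present in both arms, CpG-A + LIF vs CpG-B + LIF called Slfn4 and Slfn5, neither with a readable direction, against 16.4% of all probe sets called and 3.25% called without one. Slfn5 had significands of 9.82, 7.43 and 1.18 in CpG-A + LIF and 4.34, 4.70 and 4.10 in CpG-B + LIF, and the groups do not overlap. Its reading was 1.12 ± 0.22 (or -2.20), just outside the limit (limma adjusted p = 0.00162). Slfn4 had 1.25, 1.08 and 1.19 against 4.88, 4.59 and 4.02, for a reading of 1.39 ± 0.32 (or -1.94) with limma adjusted p = 0.0059. This Slfn4 call was lost with the circle opened at its widest gap, at adjusted p = 0.0665. Slfn8 read 0.38 ± 0.16 here and was not called (limma adjusted p = 0.123).

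The effect of LIF on otherwise unstimulated cells was read from LIF vs medium. It called 1 of the 8 members, Slfn2, against 0.624% of all probe sets called and 0.211% called higher. Without 1 medium array it called 0 members and 0.0932% of all probe sets (replicate 1 left out) or 0.0486% (replicate 3 left out), and 0 of either when only these groups were fitted. The LIF arrays had Slfn2 significands of 5.70, 6.49 and 4.58, all above the 3.46 and 3.27 of medium. Slfn2 read 0.72 ± 0.14 higher (limma adjusted p = 0.0243). The call was lost without any one of medium replicates 1 and 3 or LIF replicates 1 and 2, and when only the medium and LIF arrays were fitted, with adjusted p up to 0.289 over these settings. The other 7 members read between -0.62 (Slfn3) and 0.65 (Slfn4) and were not called. Medium and LIF arrays did not overlap for Slfn2, Slfn3 and Slfn10-ps (25.8% of all probe sets). Slfn3 had 3.46, 3.06 and 4.48 in LIF, all below medium (-0.62 ± 0.22, limma adjusted p = 0.289), and Slfn10-ps had 6.58, 6.04 and 7.08 (-0.28 ± 0.14, limma adjusted p = 0.524).

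LIF added to a CpG called no member, which does not exclude changes near a full multiple of 3.32. For CpG-A + LIF vs CpG-A, limma called 0 of 8 members and 0% of all probe sets, and 0 members had an unadjusted p under 0.05. The readings lay between -0.38 (Slfn5) and 0.26 (Slfn1), and only Slfn1 had arrays that did not overlap (10.8% of all probe sets), at 3.89, 4.17 and 4.35 with LIF. For CpG-B + LIF vs CpG-B, limma called 0 of 8 members and 0.0122% of all probe sets, and 1 member had an unadjusted p under 0.05. That member was Slfn5, with 7.21, 7.03 and 7.16 in CpG-B and 4.34, 4.70 and 4.10 in CpG-B + LIF. Its arrays did not overlap (13.8% of all probe sets), and the reading of -0.71 ± 0.22 had unadjusted p = 0.00488 and limma adjusted p = 0.38.

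The difference between LIF effects was tested directly. LIF's effect with CpG-A minus its effect in medium was called for 0 members and 0.0081% of all probe sets, with 1 member at an unadjusted p under 0.05. This was Slfn2, at -0.79 ± 0.18 with limma adjusted p = 0.216. LIF's effect with CpG-B minus its effect in medium was called for 0 members and 0.118% of all probe sets, with 3 members at an unadjusted p under 0.05. They were Slfn2 (-0.62 ± 0.18, limma adjusted p = 0.245), Slfn5 (-0.90 ± 0.33, limma adjusted p = 0.367) and Slfn3 (0.76 ± 0.29, limma adjusted p = 0.393). A LIF effect on Slfn2 that differs between resting and CpG-treated cells is therefore not shown.

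Against LIF alone, the CpGs given with LIF called more members than the CpGs alone did against medium. More of all probe sets were called too, and LIF has 3 arrays where medium has 2. Whether the members respond differently from these 2 baselines was not tested. CpG-A + LIF vs LIF called 6 of 8, with Slfn2 and Slfn9 higher and 4 without a readable direction, against 16.8% of all probe sets called, 5.75% higher and 3.95% without a readable direction. CpG-B + LIF vs LIF called 7 of 8, with Slfn2, Slfn8 and Slfn9 higher, Slfn1 lower and 3 without a readable direction, against 24.1% called, 9.87% higher, 8.43% lower and 5.83% without a readable direction. These comparisons share the LIF arrays. The median nearest reading of the 8 was 0.99 with CpG-A and 0.38 with CpG-B, the latter 0.73 with Slfn3 at its other reading of 1.70. The other members without a readable direction stand at their nearest readings here, so these medians settle no direction for the family.

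For Slfn2, the readings against LIF fell inside the limit. Slfn2 had 9.13, 8.61 and 9.55 in CpG-A + LIF and 1.03, 1.04 and 9.71 in CpG-B + LIF, against 5.70, 6.49 and 4.58 in LIF. It read 0.72 ± 0.12 higher for CpG-A (limma adjusted p = 4.83e-04) and 0.87 ± 0.12 higher for CpG-B (limma adjusted p = 4.98e-05), calls kept in every setting run. The step from medium to LIF (0.72), these steps, and the small steps between each CpG with and without LIF (-0.07 and 0.10) all lie inside the limit, and they add up to the nearest readings of 1.51 and 1.49. The sums use the same group means as the direct readings, and each step can itself be misread, so they settle no direction. The call of the step from medium to LIF was lost in 5 of 24 other settings.

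Slfn1 was the only member called lower with a readable direction in any of the 9 comparisons. Slfn5 in CpG-B + LIF vs LIF was called in all 24 other settings, with nearest readings from -1.65 to -1.12, outside the limit. The significands of Slfn1 were 3.51, 5.11 and 6.59 in LIF and 2.98, 2.58 and 2.94 in CpG-B + LIF, with no overlap. The reading was -0.80 ± 0.20 (limma adjusted p = 0.0076), and the highest adjusted p over the settings run was 0.0497. In CpG-A + LIF, at 3.89, 4.17 and 4.35, Slfn1 overlapped LIF and read -0.25 ± 0.20 (limma adjusted p = 0.509).

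Slfn8 had 3.51, 2.54 and 3.07 in LIF, 9.35, 6.55 and 8.33 in CpG-A + LIF, and 6.83, 5.25 and 6.48 in CpG-B + LIF. Neither CpG group overlaps LIF. Slfn8 read 1.03 ± 0.16 higher with CpG-B (limma adjusted p = 1.23e-04) and 1.41 ± 0.16 (or -1.91) with CpG-A (limma adjusted p = 1.09e-05). Slfn9 had 3.93, 3.31 and 4.45 in LIF, 6.06, 6.01 and 7.52 in CpG-A + LIF, and 5.94, 6.62 and 4.92 in CpG-B + LIF. It read 0.75 ± 0.18 higher with CpG-A and 0.58 ± 0.18 higher with CpG-B (limma adjusted p = 0.00635 and 0.0229), the second call being lost without LIF replicate 1 or 2 or CpG-B + LIF replicate 1 or 2, at adjusted p up to 0.10. Slfn10-ps, at 1.79, 1.43 and 1.79 in CpG-A + LIF and 1.68, 1.29 and 1.51 in CpG-B + LIF, read 1.34 ± 0.13 (or -1.98) and 1.18 ± 0.13 (or -2.14).

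Slfn3, Slfn4 and Slfn5 were called against LIF without a readable direction. Slfn3 had 9.79, 6.45 and 9.67 in CpG-A + LIF and 1.15, 1.11 and 1.29 in CpG-B + LIF, for readings of 1.23 ± 0.19 (or -2.09) and -1.62 ± 0.19 (or 1.70). The reading between these 2 CpG groups was -0.47 ± 0.19 (limma adjusted p = 0.112), and they lie on either side of the point opposite LIF on the circle, where the sign of a nearest reading turns. The nearest reading of -1.62 for Slfn3 turned to 1.58 without LIF replicate 2 and to 1.64 without CpG-B + LIF replicate 3. Slfn3 was the one member whose 3 readings among the LIF groups did not add up (2.08% of all probe sets). Slfn5 read -1.44 ± 0.22 (or 1.89) with CpG-B + LIF and -0.31 ± 0.22 with CpG-A + LIF. Slfn4 had 2.20, 7.20 and 3.96 in LIF, a 3.28-fold spread, and read 1.56 ± 0.32 (or -1.76) with CpG-A + LIF and 0.18 ± 0.32 with CpG-B + LIF. Without LIF replicate 2 the first of these turned to -1.33 (adjusted p = 0.00314). Without LIF replicate 3 these Slfn4 readings were -0.10 (adjusted p = 0.917) and -1.49 (adjusted p = 0.00624), so both change with that array.

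Of the 13 called readings without a readable direction, each could also be reached by steps inside the limit through other groups. For 11 every such path gave the nearest reading, and for 2 every path gave the other one. The 2 were Slfn4 in CpG-A vs medium, at 2.03, and Slfn3 in CpG-B + LIF vs LIF, at 1.70. For Slfn5 in CpG-B + LIF vs LIF the paths gave the lower reading, at -1.44. For the others they gave the higher reading, among them Slfn2 in CpG-A and CpG-B, and Slfn8 and Slfn3 in CpG-A + LIF. These steps can themselves be misread, and the paths share arrays, so they describe the values and settle no direction.

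**Figure D3:**
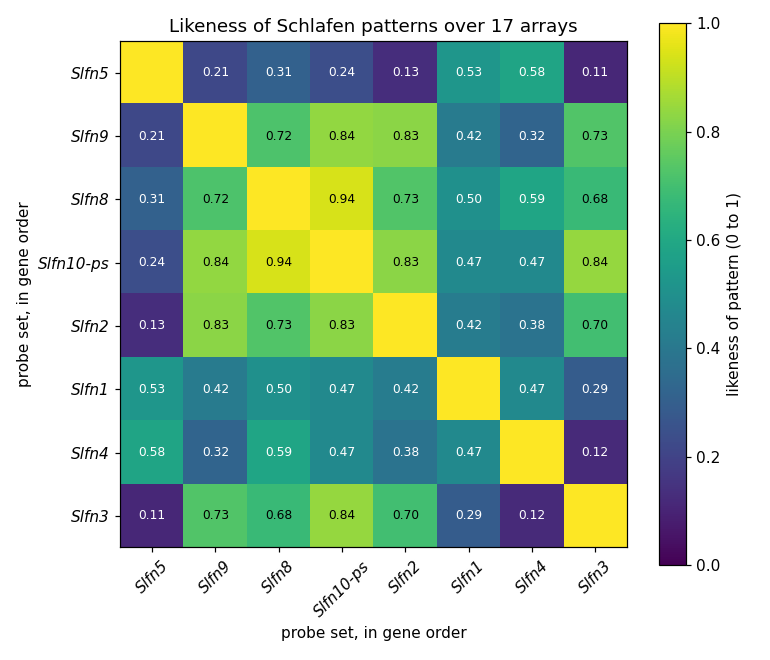
Likeness of the patterns of each pair of Schlafen probe sets over the 17 arrays, from 0 to 1, with the genes in their order along the chromosome on both axes. Slfn8 and Slfn10-ps are most alike at 0.939, and the row of Slfn5 holds 0.111 with Slfn3, the lowest value.

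Likeness between 2 probe sets was measured as the mean resultant length of their log2 differences on the circle over the 17 arrays, which is 1 when the difference is the same on every array. It was highest for the neighbours Slfn8 and Slfn10-ps (0.939) and lowest for Slfn3 and Slfn5 (0.111). All these values rest on the same 17 arrays and groups, and how high likeness runs between probe sets in general was not measured. A high value therefore shows no link particular to a pair. Outside the family, the probe sets most like Slfn2 were Psmd11, a proteasome regulatory subunit (0.965), Hsd17b12, a fatty acid elongation enzyme (0.960), and Atp1b3, a sodium pump subunit (0.957). For Slfn8 they were the histone gene H2bc21 (0.963), Trim30d, of the Trim30 family (0.948), and Zbtb5, a zinc finger factor (0.932). For Slfn9 they were Mitd1 (0.938), the proteasome subunit Psma5 (0.929) and Plaa (0.924). For Slfn10-ps they were N4bp1, an RNA-binding antiviral protein (0.962), Tapbp, the tapasin of the peptide loading complex (0.962), and H2bc21 again (0.957).

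The interferon pathway that induces Schlafen genes was followed through 11 probe sets of 10 genes, of 12 listed, from the receptor to the transcription factor complex ISGF3 and its feedback. In CpG-A vs CpG-B, 8 of the 11 were called, against 12.3% of all probe sets, and all 8 read higher with CpG-A, with a median of 0.55 beside 0.04. Among them, the receptor chain Ifnar1 read 0.37 ± 0.10 higher, the kinase Tyk2 0.55 ± 0.15, the ISGF3 subunit Stat2 0.85 ± 0.12 and its partner Irf9 0.62 ± 0.16. Slfn5 and Slfn8 were called in the same direction and the other 6 Schlafen members were not called. With LIF in both arms, CpG-A + LIF vs CpG-B + LIF called 7 of the 11 (5 higher, 2 unreadable), against 16.4%, with a median of 0.61. There Slfn8 was not called, and Slfn4 and Slfn5 were called without a readable direction. In CpG-A vs medium 4 of the 11 were called (2 higher, 1 lower, 1 unreadable), against 16.1%, in CpG-B vs medium 3 (1, 1 and 1), against 17.8%, and in LIF vs medium 0, against 0.624%. CpG-A + LIF vs LIF called 2 (1 higher, 1 unreadable), against 16.8%, and CpG-B + LIF vs LIF 9 (2 higher, 6 lower, 1 unreadable), against 24.1%. Of 5 probe sets of the LIF pathway genes Lifr, Il6st, Stat3 and Socs3, LIF vs medium called 1, a probe set of the feedback inhibitor Socs3, at -1.49 ± 0.18 (or 1.83). The other Socs3 probe set read 0.88 ± 0.29 and was not called (limma adjusted p = 0.237).

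Markers of pDCs and of other cell types were counted in the same comparisons. In CpG-B vs medium, where 17.8% of all probe sets were called, 6 of 8 probe sets of pDC markers, 4 of 6 of monocytes and macrophages, 3 of 5 of neutrophils, 3 of 5 of conventional dendritic cells, 1 of 4 of B cells, 1 of 4 of natural killer cells and 0 of 2 of T cells were called. The same lists had, in CpG-A vs medium (16.1%), 4, 3, 1, 2, 1, 0 and 0 called. In CpG-A vs CpG-B (12.3%) they had 5, 3, 0, 3, 2, 1 and 0, and in LIF vs medium 0 in every list. Summed levels and markers at 0 cannot be given without the decimal mark, and the part of these cells in the Schlafen readings was not tested.

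Of the probe sets next to the family, Slfn5os, a long noncoding RNA on the strand opposite to Slfn5 whose gene overlaps it, was looked at after its values were seen. It had significands of 1.43 and 1.41 in medium, 3.59, 3.87 and 2.81 in CpG-A, 2.50, 2.83 and 2.64 in CpG-B, and 1.65, 1.79 and 1.59 in CpG-B + LIF. Unlike Slfn5, Slfn5os was called against medium by both CpGs, at 1.25 ± 0.17 (or -2.07) and 0.90 ± 0.17 higher (limma adjusted p = 7.24e-05 and 0.00103), and a difference between the 2 genes was not tested. LIF added to CpG-B gave -0.66 ± 0.15 for Slfn5os (limma adjusted p = 0.166), with no overlap between arrays. Slfnl1, a Schlafen-like gene, was called by limma in 0 of the 9 comparisons. At an unadjusted p under 0.05 it had 2 readings, -0.34 ± 0.14 in CpG-B vs medium and 0.28 ± 0.12 in CpG-A vs CpG-B.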

How the data were processed

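The authors deposited 1 value table for the 17 arrays. The submitters' processing notes name RMA, a background correction, normalization and probe summary. Neither its version nor its settings are stated in the sources used here. The deposited score per probe set is a linear intensity whose decimal mark is lost, since 1 of 419560 cells kept its mark. Gene names came from the platform annotation (21354 probe sets with 1 symbol, 1275 with several, 2051 with none). Group means were taken on the circle of log2 values, each array was placed at its nearest deviation, and limma 3.58.1 in R 4.3.3 was fitted to all 17 arrays together with a mean for each group, leaving 11 residual degrees of freedom, and Benjamini-Hochberg adjustment over all 24680 probe sets. Calls were made at an adjusted p under 0.05. The script was tested on simulated data whose changes all lay inside the direction limit, so its reading of larger changes was not tested. Every member was named, the other lists were described by counts, and likeness was listed for members called in at least 4 of 9 comparisons. The members, lists and the direction limit were chosen with earlier results of these data known. Alternatives were a replicate block, fitting only the groups compared, opening the circle at its widest gap, removing each array's median, robust eBayes, 1 probe set per gene, leaving out the most variable probe sets, and leaving out each array. Arrays have no read depth, so precision is limited by their number. The median within-group SD over all probe sets was 0.192.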

Additional observations from a re-analysis of the deposited data

How the results depend on the processing

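Of the 28 called readings of Schlafen members, 20 kept their call in every setting run, though Slfn3 in CpG-B + LIF vs LIF turned its nearest sign in 3. The 8 others were Slfn4 in 3 comparisons, Slfn3 and Slfn8 in CpG-B vs medium, Slfn2 in LIF vs medium, Slfn5 in CpG-A vs CpG-B and Slfn9 in CpG-B + LIF vs LIF. LIF vs medium called 0 members when only the compared arrays were fitted, and 0 to 1 when 1 array was left out. CpG-A vs CpG-B called 1 to 3 members when 1 array was left out, and CpG-A + LIF vs CpG-B + LIF called 1 member with the circle opened at its widest gap. For Slfn4 in CpG-B + LIF vs LIF, readings with 1 array left out ran from -1.49 to 0.60, the former without LIF replicate 3. For these changes the cause was not tested beyond the arrays left out. The labels do not say what a replicate number shares, and not every same-numbered pair had a correlation over 0.1, so the numbers were not taken as pairs. Same-numbered pairs ran from -0.07 to 0.23 with 7 of 40 over 0.1, against 0 of 80 differently numbered pairs, and 11 of 17 arrays correlated best with their own number, a hint of a shared effect from the data and not from the design. With the replicate block CpG-A + LIF vs CpG-B + LIF called 5 members (Slfn1, Slfn3 and Slfn8 added), Slfn3 in CpG-A vs medium was called at 0.77 (adjusted p = 0.00166), and the block moved no other member count by over 1.5 times. Removing each array's median shifted arrays by -0.0285 to 0.0274 and turned the nearest sign of no called reading. It moved Slfn9 in CpG-B vs medium to 1.15 and Slfn10-ps in CpG-A vs medium to 1.12. Both lie outside the limit of 1.11, so these directions were not readable in that setting. The replicate block moved them to 1.15 and 1.17. Slfn8 in CpG-B + LIF vs LIF ran up to 1.14 over the settings run. Slfn4 was not tested when the most variable probe sets were left out.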
